A study of Citrus maxima with 12 samples.

Results

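In pomelo fruit, 90 genes were expressed at a similar level in diseased Jinlan fruit and in diseased and control Taoxi fruit, and at a lower level in diseased Jinsha fruit. They were chosen by these same expression values, out of 30123 gene IDs that start with Cg and 32863 IDs in all. For each ID, the mean FPKM of each group, a read count made relative to gene length and library size, was taken as log2(mean FPKM + 1). A gene was chosen when diseased Jinsha was lower than both diseased Jinlan and diseased Taoxi by 0.8 log2 units or more, diseased Jinlan and diseased Taoxi differed by less than 0.585, diseased and control Taoxi differed by less than 0.8, and diseased Taoxi averaged 3 FPKM or more. The values of the comparisons used in the choice are therefore given as a description, with no test. No difference between diseased Jinsha and control Taoxi was required.

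The study followed black spot in Jinggang honey pomelo (Citrus maxima), with RNA from whole fruit tissue of 3 cultivars. The 12 libraries formed 4 groups of 3: fruit labelled disease of the cultivars Jinsha, Jinlan and Taoxi, and fruit labelled control of Taoxi. The labels give no age, no time after infection and no pooling, and call the libraries of a group biosamples, with no word on whether separate trees or fruits were sampled. Control fruit of Jinsha and Jinlan was not analysed here, so a lower level in Jinsha cannot be told apart as a trait of the cultivar or as a response to the disease.

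Black spot is a fungal disease that blemishes the rind of citrus fruit. Plants answer fungi with surface receptors that sense the microbe, with signalling and transcription factors, and with products of the phenylpropanoid pathway, which supplies lignin for cell walls and flavonoids. In bulk tissue such as fruit, fewer cells of a type and less RNA per cell give the same lower value and cannot be told apart. The deposited table pairs no ID with a gene name, and no reference was used, so the roles of the 90 genes are not stated.

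Each library held a total of 560349 to 577783 FPKM, and the read depth behind the values is unknown. The library labelled Taoxi control 1 stands apart from the other controls. By the correlations that follow, it lies nearer to diseased Jinlan and Jinsha than to either state of Taoxi. Across the 12621 Cg IDs at 3 FPKM or more in diseased Taoxi, its log2(FPKM + 1) correlated at 0.967 on average with diseased Jinlan, at 0.949 with diseased Jinsha, at 0.888 with diseased Taoxi and at 0.857 with Taoxi controls 2 and 3, which correlated at 0.989 with each other (Pearson, across genes, which are not independent replicates). It was left out of the choice, and the control level below is that of Taoxi controls 2 and 3 unless control 1 is named.

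Of the 12621 IDs at this level, 1775 were lower in Jinsha by 0.8 log2 units or more against diseased Taoxi, 412 against Jinlan and 224 against both. Among these 224, 108 were left out because Jinlan and diseased Taoxi differed too much, and 26 more because diseased and control Taoxi did. The 90 genes that remained were 0.713% of the 12621 IDs. The rule turned round, for genes high in Jinsha alone, gave 143 genes, and with Jinlan in the place of Jinsha it gave 139 genes low in Jinlan alone.

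**Figure D1:**
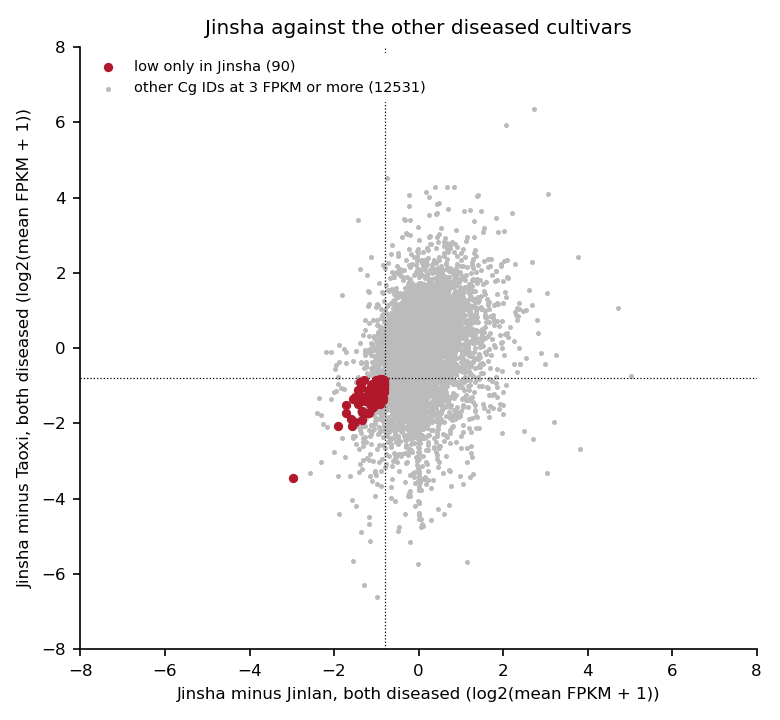
Each point is 1 Cg ID at 3 FPKM or more in diseased Taoxi, by the log2(mean FPKM + 1) difference of diseased Jinsha from diseased Jinlan (horizontal) and from diseased Taoxi (vertical), with dotted lines at -0.8. The 90 chosen genes (red) lie in the lower left corner, where other IDs (grey) failed a bound on Jinlan or on control Taoxi, and Cg7g000360 has the largest differences of the 90, at -2.96 and -3.46.

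Most of the 90 genes were lower in Jinsha by about 1 log2 unit, and none was silent there. The log2 difference of Jinsha had a median of -1.002 against Jinlan and -1.17 against diseased Taoxi, beside medians of -0.12 and -0.04 over the 12621 IDs. In FPKM, Jinsha stood at a median of 0.441 times the Jinlan mean (from 0.113 to 0.565 times) and 0.391 times the diseased Taoxi mean (from 0.0798 to 0.552 times). By the smaller of the 2 differences, 40 of the 90 genes were lower by at least 1 log2 unit, 7 by at least 1.5 and 1 by at least 2. The lowest value of any of them in a Jinsha library was 0.598 FPKM, and 3 had a Jinsha mean under 1 FPKM.

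Jinsha did not overlap the other groups for 89 of the 90 genes. In these, the 3 Jinsha libraries lay below the 6 diseased Jinlan and Taoxi libraries and also below Taoxi controls 2 and 3. The exception, CgUng020370, is described below. A lack of overlap does not mean a gap wider than the spread within a group. For Cg2g011510, the highest Jinsha library had 3.90 FPKM, and the Jinlan libraries ran from 4.28 to 9.55 FPKM. Over the 12621 IDs, 23.4% had Jinsha below the 6 diseased libraries and 20.3% below all 8 libraries. The choice of genes used these libraries, so nothing is read from the gap between these shares. The SD of log2(FPKM + 1) over the 3 libraries of a group had a median of 0.12 in Jinsha, 0.09 in Jinlan and 0.13 in diseased Taoxi over the 90 genes, against 0.09, 0.08 and 0.11 over the 12621 IDs.

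**Figure D2:**
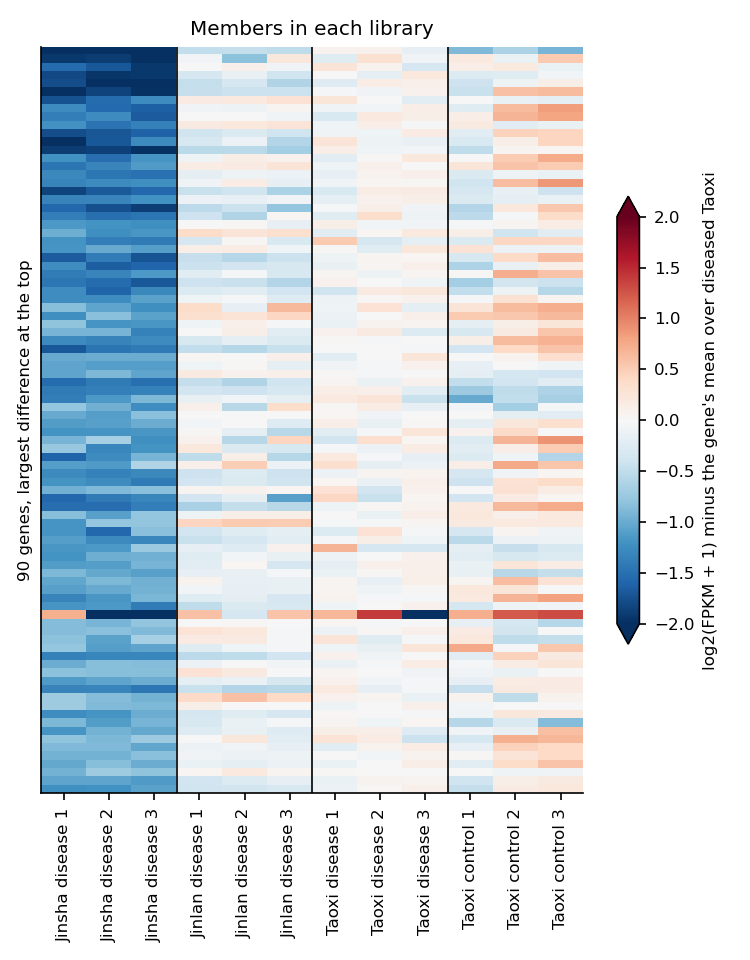
Rows are the 90 genes, ordered by the smaller of the differences from Jinlan and diseased Taoxi, and columns are the 12 libraries. Colour gives log2(FPKM + 1) minus the gene's mean over the 3 diseased Taoxi libraries, with 11 cells beyond the range of -2 to 2. The 3 Jinsha columns are blue in all rows but that of CgUng020370, where Jinsha 1 is red, and the columns of Taoxi controls 2 and 3 hold more red than that of Taoxi control 1.

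Cg7g000360 had the largest difference of the 90 genes. It stood at 5.90, 7.60 and 6.39 FPKM in Jinsha, against 58.5, 59.2 and 57.9 FPKM in Jinlan fruit, 87.2, 87.9 and 74.0 FPKM in diseased Taoxi, 52.9 and 43.2 FPKM in Taoxi controls 2 and 3, and 44.5 FPKM in Taoxi control 1. Every other library was at least 40 FPKM, while no Jinsha library reached 8 FPKM. Its Jinsha mean of 6.63 ± 0.87 FPKM was 0.113 times that of Jinlan (58.5 ± 0.61 FPKM) and 0.0798 times that of diseased Taoxi (83.0 ± 7.86 FPKM; SD, n = 3 each). The log2 differences were -2.96 and -3.46. Within Taoxi its diseased mean was 1.73 times the control mean, a log2 difference of 0.78 that lies just inside the bound of 0.8. Its place among the 90 genes depends on the processing. It was chosen in 18 of 23 alternatives, but not with median-ratio or upper-quartile scaling, with Taoxi control 1 kept, without diseased Taoxi 3 or without Taoxi control 2.

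Next came Cg5g019450, at 40.5, 41.2 and 29.5 FPKM in Jinsha, against 151, 88.4 and 184 FPKM in Jinlan fruit, 133, 194 and 150 FPKM in diseased Taoxi, and 143 and 226 FPKM in Taoxi controls 2 and 3. The Jinlan libraries spread widely for this gene, with Jinlan 2 lowest, yet none came down to the Jinsha range. Its log2 differences were -1.90 against Jinlan and -2.07 against diseased Taoxi.

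Cg1g013780 was a low-level gene with an even level outside Jinsha. It had 1.28, 1.06 and 0.739 FPKM in Jinsha, against 5.61, 6.15 and 5.37 FPKM in Jinlan fruit, 6.92, 6.01 and 4.29 FPKM in diseased Taoxi, and 6.62 and 5.05 FPKM in Taoxi controls 2 and 3. The means of Jinlan, diseased Taoxi and control Taoxi were 5.71, 5.74 and 5.84 FPKM, and Jinsha was lower than Jinlan and than diseased Taoxi by the same 1.73 log2 units.

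Cg4g024590 and Cg5g014820 were alike in level and difference. Cg4g024590 had 11.4, 10.3 and 10.4 FPKM in Jinsha, against 33.1, 38.2 and 31.9 FPKM in Jinlan fruit, 42.2, 36.7 and 48.9 FPKM in diseased Taoxi, and 35.5 and 40.5 FPKM in Taoxi controls 2 and 3. Cg5g014820 had 19.9, 14.3 and 14.7 FPKM in Jinsha, against 50.5, 55.4 and 46.1 FPKM in Jinlan fruit, 58.6, 78.4 and 76.1 FPKM in diseased Taoxi, and 65.3 and 76.6 FPKM in Taoxi controls 2 and 3. The highest Jinsha library was 11.4 FPKM for Cg4g024590 and 19.9 FPKM for Cg5g014820, below the lowest library elsewhere at 31.9 and 46.1 FPKM. Cg5g014800, a member that the numbering places 2 IDs before Cg5g014820 and that is named here after its values were seen, had 0.764, 0.991 and 1.15 FPKM in Jinsha, against 3.69, 3.85 and 3.11 FPKM in Jinlan, and against 4.15, 6.06 and 6.18 FPKM in diseased Taoxi.

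Cg8g004030 and Cg2g020660 had their highest mean in Jinlan. Cg8g004030 had 104, 120 and 146 FPKM in Jinsha, against 390, 399 and 427 FPKM in Jinlan fruit, 412, 346 and 299 FPKM in diseased Taoxi, and 319 and 305 FPKM in Taoxi controls 2 and 3. Cg2g020660 had 19.1, 15.7 and 17.2 FPKM in Jinsha, against 51.5, 53.0 and 54.5 FPKM in Jinlan fruit, 42.9, 49.7 and 44.0 FPKM in diseased Taoxi, and 38.5 and 41.4 FPKM in Taoxi controls 2 and 3. Among the 90 genes, the Jinlan mean was the highest of the other 3 groups for 15.

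Cg5g030800, Cg1g000980 and Cg1g000640 were highest in control Taoxi. Cg5g030800 had 64.4, 73.7 and 67.0 FPKM in Jinsha, against 194, 197 and 198 FPKM in Jinlan fruit, 262, 256 and 285 FPKM in diseased Taoxi, 404 and 415 FPKM in Taoxi controls 2 and 3, and 195 FPKM in Taoxi control 1. The 4 groups did not overlap, in the order Jinsha, Jinlan, diseased Taoxi, control Taoxi, with control 1 in the Jinlan range. Cg1g000980 had 32.0, 25.9 and 24.5 FPKM in Jinsha, against 74.5, 73.1 and 81.5 FPKM in Jinlan fruit, 74.6, 75.3 and 85.5 FPKM in diseased Taoxi, and 122 and 140 FPKM in Taoxi controls 2 and 3. Cg1g000640 had 12.6, 13.8 and 10.1 FPKM in Jinsha, against 34.5, 34.2 and 32.6 FPKM in Jinlan fruit, 27.7, 39.6 and 37.3 FPKM in diseased Taoxi, and 55.6 and 60.6 FPKM in Taoxi controls 2 and 3. For both of these genes, Jinlan and diseased Taoxi overlapped and Taoxi controls 2 and 3 were higher than either. Taoxi control 1 had 66.4 FPKM for Cg1g000980, below every Jinlan and diseased Taoxi library. For Cg1g000640 it had 37.7 FPKM, within the diseased Taoxi range.

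**Figure D3:**
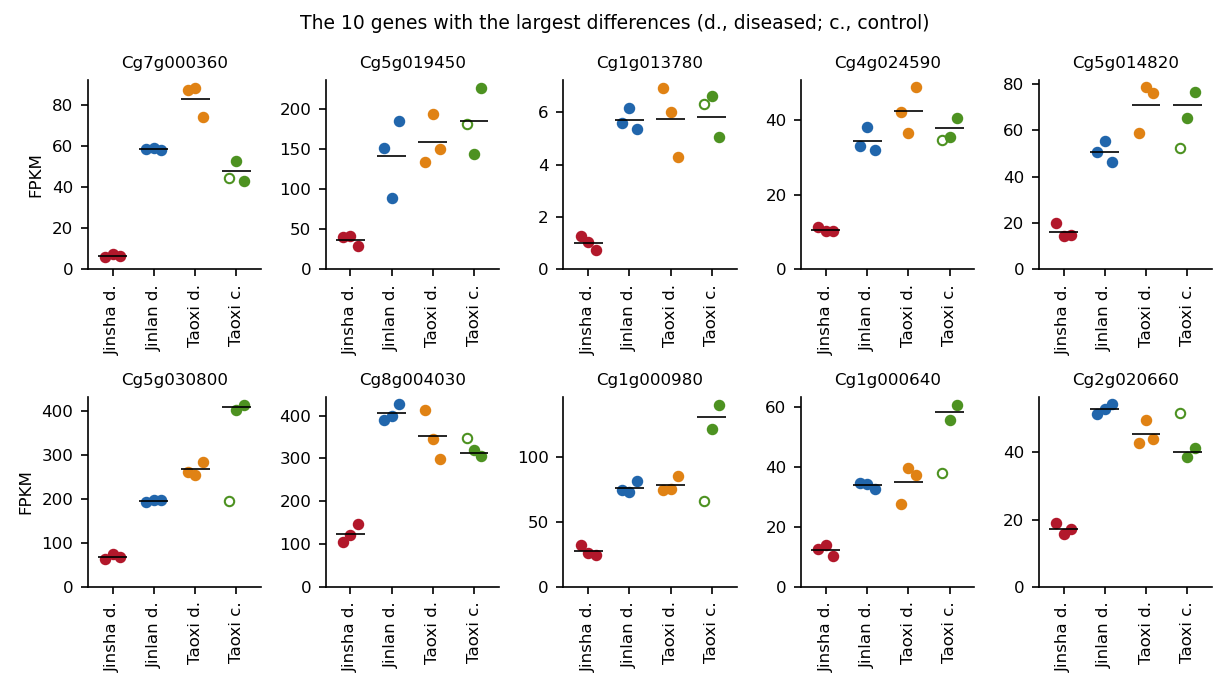
FPKM of the 10 genes with the largest differences, 1 panel a gene with its own axis from 0, 1 point a library, for diseased Jinsha, Jinlan and Taoxi and control Taoxi. Lines are group means, and the open circle is Taoxi control 1, which the control mean leaves out. The Jinsha points lie below all others in each panel, while the order of the other groups varies from gene to gene.

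By level in diseased Taoxi, 35 of the 90 genes averaged 3 to 10 FPKM, 43 averaged 10 to 100 FPKM and 12 averaged 100 FPKM or more. The most abundant, Cg9g002720, had 1262, 1430 and 1703 FPKM in Jinsha, against 2717, 2782 and 2522 FPKM in Jinlan fruit, 3339, 3098 and 3157 FPKM in diseased Taoxi, 5123 and 5594 FPKM in Taoxi controls 2 and 3, and 3658 FPKM in Taoxi control 1. Its log2 differences were modest, at -0.87 against Jinlan and -1.13 against diseased Taoxi, but no library of another group came within the Jinsha range. Summed over the other 89 genes, the 3 Jinsha libraries held 1702, 1724 and 1771 FPKM, against 4066, 4101 and 4114 FPKM in Jinlan fruit, 4581, 4610 and 4640 FPKM in diseased Taoxi, 5204 and 5384 FPKM in Taoxi controls 2 and 3, and 4129 FPKM in Taoxi control 1.

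Among the other abundant genes, Cg2g039840 had 113, 119 and 126 FPKM in Jinsha, against 298, 319 and 296 FPKM in Jinlan fruit, 371, 367 and 439 FPKM in diseased Taoxi, and 541 and 528 FPKM in Taoxi controls 2 and 3. Cg5g037720 had 111, 111 and 122 FPKM in Jinsha, against 204, 231 and 217 FPKM in Jinlan fruit, 300, 325 and 338 FPKM in diseased Taoxi, and 501 and 539 FPKM in Taoxi controls 2 and 3. Both had a level that was higher from Jinsha to Jinlan to diseased Taoxi to Taoxi controls 2 and 3, with no overlap between these. Taoxi control 1 had 339 FPKM for Cg2g039840, between Jinlan and diseased Taoxi. For Cg5g037720 it had 369 FPKM, between diseased Taoxi and controls 2 and 3.

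Cg3g011790 and Cg2g029720 had the opposite order within Taoxi. Cg3g011790 had 112, 117 and 118 FPKM in Jinsha, against 231, 228 and 238 FPKM in Jinlan fruit, 330, 325 and 257 FPKM in diseased Taoxi, and 211 and 197 FPKM in Taoxi controls 2 and 3. Cg2g029720 had 112, 124 and 112 FPKM in Jinsha, against 264, 248 and 249 FPKM in Jinlan fruit, 238, 228 and 233 FPKM in diseased Taoxi, and 183 and 179 FPKM in Taoxi controls 2 and 3. Diseased Taoxi stood above both controls for each. The last 4 genes at 100 FPKM or more, Cg1g002240, Cg5g031260, Cg9g021720 and Cg5g003360, named here after their values were seen, had means of 85.3, 91.6, 63.6 and 62.0 FPKM in Jinsha. Their Jinlan means were 242, 180, 122 and 110 FPKM, and their diseased Taoxi means were 212, 193, 157 and 117 FPKM.

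The genes nearest to the median of both differences are ordinary in the size of these differences, though not in every other respect. Cg3g022810 had 25.9, 25.9 and 29.4 FPKM in Jinsha, against 58.9, 61.4 and 52.5 FPKM in Jinlan fruit, 58.5, 63.6 and 66.3 FPKM in diseased Taoxi, and 78.0 and 64.8 FPKM in Taoxi controls 2 and 3. Cg1g023050 had 9.80, 9.37 and 9.44 FPKM in Jinsha, against 20.1, 21.8 and 18.7 FPKM in Jinlan fruit, 20.4, 21.1 and 22.7 FPKM in diseased Taoxi, and 21.4 and 20.3 FPKM in Taoxi controls 2 and 3. The remaining groups overlapped one another for Cg1g023050, so that Jinsha alone stood apart. Cg2g027400, Cg8g022280 and Cg9g005220, which also lay near the median, had Jinsha means of 1.96, 1.57 and 1.05 FPKM, against Jinlan means of 4.76, 4.22 and 3.08 FPKM.

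At the edge of the choice, the 3 genes just inside were Cg1g024340, Cg3g012280 and Cg4g009080, each with a smaller difference of -0.81 log2 units. The 3 IDs just outside that met every other part of the rule were Cg3g002880, Cg3g000690 and Cg6g004040, with smaller differences of -0.797, -0.791 and -0.791. Cg6g004040 had 18.5, 15.3 and 14.1 FPKM in Jinsha, against 30.7, 27.4 and 26.8 FPKM in Jinlan, and against 36.0, 30.0 and 30.9 FPKM in diseased Taoxi, and its Jinsha libraries too lay below all the others. The number of genes moved with the scaling between libraries. Median-ratio scaling, which shifted the median difference of Jinsha from Jinlan over the 12621 IDs by 0.12 log2 units, left 56 genes, of which 48 were among the 90. Under that scaling, upper-quartile scaling and TPM, all 90 genes kept a Jinsha mean below those of Jinlan and diseased Taoxi. This was built in. The genes were chosen at differences of 0.8 log2 units or more. None of these scalings shifted the median difference of Jinsha from Jinlan or diseased Taoxi by more than about 0.12.

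CgUng020370 was chosen on its means alone. It had 11.4, 0.677 and 0.745 FPKM in Jinsha, against 10.5, 5.04 and 10.4 FPKM in Jinlan fruit, 11.1, 19.0 and 0.827 FPKM in diseased Taoxi, and 16.8 and 17.8 FPKM in Taoxi controls 2 and 3. Jinsha 1 lay above all 3 Jinlan libraries, and diseased Taoxi 3 lay within the range of Jinsha, so the label of a gene low in Jinsha alone does not hold for it. The next widest spreads over the Jinsha libraries were those of Cg1g012560 (1.33, 2.12 and 3.18 FPKM) and Cg5g025000 (1.80, 1.12 and 2.52 FPKM). For Cg1g012560 the lowest library elsewhere was Jinlan 3 at 5.75 FPKM, and for Cg5g025000 it was Jinlan 1 at 3.87 FPKM.

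The 5 widest spreads over the Jinlan libraries, looked at after the values were seen, were those of Cg5g019450, CgUng020370, Cg2g011510, Cg7g020050 and Cg9g004370. In 4 of the 5, Jinlan 2 was the lowest Jinlan library, as for Cg2g011510 with 7.32, 4.28 and 9.55 FPKM. Over all 90 genes Jinlan 2 was the lowest of its group for 24 and Jinlan 3 for 38. Within Jinsha, library 1 was the lowest for 39 genes, library 2 for 25 and library 3 for 26.

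Although Jinlan and both states of Taoxi were required to be near each other, the order of their means was uneven. The Jinlan mean was below that of diseased Taoxi for 66 of the 90 genes, with a median log2 difference of -0.14, and for 80 with median-ratio scaling. As deposited, 7905 Cg IDs met both bounds and the minimum of 3 FPKM. Jinlan was below diseased Taoxi for 42.6% of them, with a median of 0.06. This share was not counted with median-ratio scaling, so the 80 genes are not compared with it. Library by library, Jinlan lay below all of diseased Taoxi for 27 of the 90 genes, above it for 8 and overlapped with it for 55. The same shares over the 7905 IDs were not counted, so nothing is read from these 3 counts. These bounds were part of the choice, so the differences are given as a description.

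Taoxi alone had both states among the libraries used, and its diseased fruit had the lower mean for more of the 90 genes than not. The diseased mean was below the control mean for 55 genes and above it for 35, with a median log2 difference of -0.16, whereas it was below control for 43.5% of the 7905 IDs, with a median of 0.04. The 3 diseased libraries lay below both controls for 34 genes (37.8%, against 19.9% of the 7905 IDs). They lay above both controls for 15 genes (16.7%, against 29.8% of the 7905 IDs), and for 41 genes the states overlapped. The count of genes with every diseased library below the controls rests on leaving out Taoxi control 1. With control 1 among the controls, the diseased libraries lay below all 3 for 6 genes, against 10% of the 7905 IDs, and above all 3 for 11 genes, against 14.3%. The diseased mean was then below the control mean for 49 genes, against 45.9% of the 7905 IDs. With so few libraries and a bound on this very difference, no test was made.

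Within the bound of 0.8, the 5 genes lowest in diseased relative to control Taoxi were Cg2g011510, Cg9g002720, Cg2g025620, Cg1g000980 and Cg1g000640, named here after their values were seen. Cg2g025620 had 24.2, 26.4 and 26.1 FPKM in diseased Taoxi, against 39.8 and 47.3 FPKM in Taoxi controls 2 and 3 and 19.1 FPKM in Taoxi control 1. The 5 highest, on the log2 scale and likewise named after their values were seen, were Cg7g000360, Cg9g005220, Cg3g011790, Cg3g016530 and Cg7g014080. Cg7g014080 had 12.8, 14.5 and 15.3 FPKM in diseased Taoxi, against 9.26 and 9.93 FPKM in Taoxi controls 2 and 3 and 12.6 FPKM in Taoxi control 1. For Cg2g025620, control 1 lay on the far side of the diseased libraries from the other controls, and for Cg7g014080 it lay just under the diseased libraries and above both controls.

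**Figure D4:**
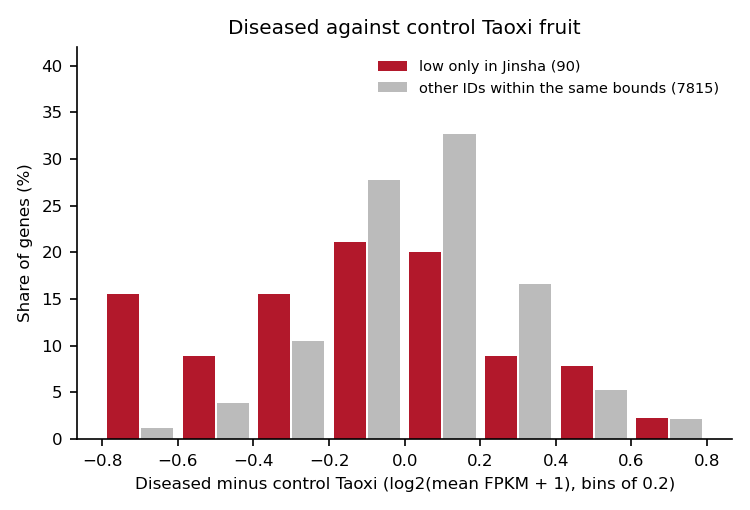
Share of genes by the log2(mean FPKM + 1) difference of diseased minus control Taoxi (controls 2 and 3), in bins of 0.2, for the 90 genes (red) and the other 7815 IDs within the same bounds (grey). Below -0.2 lie 40.0% of the 90 genes and 15.5% of the others, and above 0.2 lie 18.9% and 24.1%.

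In the means of 44 of the 90 genes, the order was Jinsha, Jinlan, diseased Taoxi, control Taoxi from low to high. Among the 7905 IDs within the bounds, 19.4% had Jinlan, diseased Taoxi and control Taoxi in that order, wherever Jinsha stood. The place of Jinsha in this order was set by the choice, and the rest depends on the controls and the scaling. With Taoxi control 1 among the controls, the diseased mean was below control for 49 genes rather than 55. Jinlan was below diseased Taoxi for 66 genes as deposited and for 80 with median-ratio scaling. The control mean was the highest of the 3 groups other than Jinsha for 53 genes and the diseased Taoxi mean for 22.

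Taoxi control 1 is the labelled library that the choice did not use. The 3 Jinsha libraries lay below it for 89 of the 90 genes, against 48.4% of the 12621 IDs. The log2 difference of Jinsha from it had a median of -1.01 over the 90 genes, from -2.58 to -0.12, and of -0.07 over the 12621 IDs. Low Jinsha values chose the genes, so a Jinsha level below any further library is in part built in. The exception was Cg9g005220, at 0.722, 1.02 and 1.40 FPKM in Jinsha and 1.22 FPKM in control 1, and at 2.19 and 1.82 FPKM in controls 2 and 3.

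For these genes control 1 stood near Jinlan more than near the other controls. Its value was nearest to the Jinlan mean for 49 of the 90 genes, to diseased Taoxi for 25, to Taoxi controls 2 and 3 for 15 and to Jinsha for 1. Over the 12621 IDs these shares were 41.7%, 16.6%, 13.5% and 28.2%. The choice set Jinsha well below the other groups, which leaves few genes nearest to it and raises the other shares. Nearness to Jinlan is therefore not read as particular to the 90 genes. Control 1 had a median of 0.976 times the Jinlan mean and 0.807 times the mean of controls 2 and 3. It lay within the range of the 3 Jinlan libraries for 38 genes, above it for 23 and below it for 29. The highest ratios to the Jinlan mean were those of Cg3g022140 (7.42 FPKM in control 1, 2.06 times), Cg5g037720 (369 FPKM, 1.70 times) and Cg9g002720 (1.37 times). The lowest were those of Cg9g005220 (0.396 times), Cg2g011220 (3.03 FPKM in control 1) and Cg3g016530 (3.55 FPKM in control 1). Whether it came from the fruit that its label names was not tested.

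**Figure D5:**
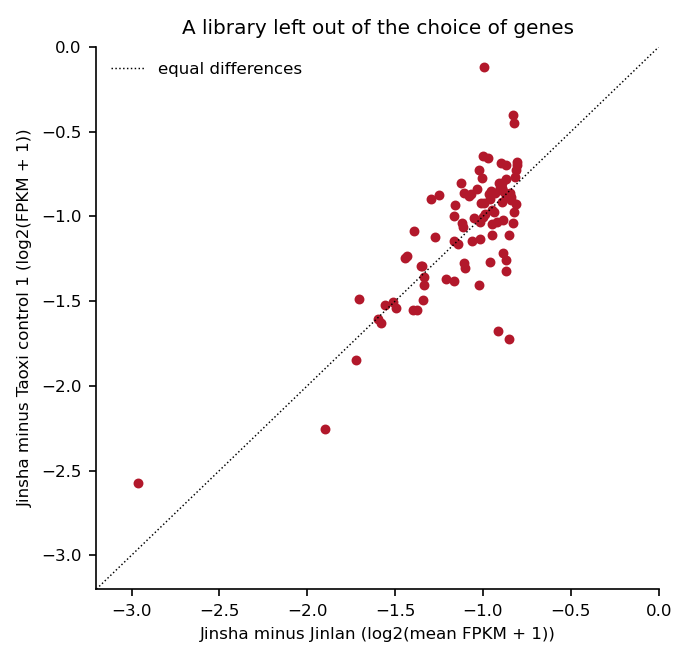
Each point is 1 of the 90 genes, by the log2 difference of diseased Jinsha from diseased Jinlan (horizontal) and from Taoxi control 1 (vertical), with a dotted line where the differences are equal. The points scatter about the line, from Cg7g000360 at -2.96 and -2.58 to Cg9g005220, which lies at -0.12 from control 1.

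In the numbering of the IDs, a single pair of the 90 genes, Cg2g002390 and Cg2g002400, had consecutive listed IDs. The next listed ID was a chosen gene for 1.11% of the 90 genes, which is 1 gene, and for 0.341% of the 12621 IDs. A share that rests on 1 gene cannot show whether the genes lie together. Cg2g002390 had 4.12, 5.65 and 4.71 FPKM in Jinsha, against 13.8, 13.5 and 15.0 FPKM in Jinlan, and against 9.98, 11.1 and 11.8 FPKM in diseased Taoxi. Cg2g002400 had 1.15, 1.17 and 1.35 FPKM in Jinsha, against 3.99, 3.82 and 4.14 FPKM in Jinlan, and against 3.72, 4.73 and 4.87 FPKM in diseased Taoxi. In both, Jinsha lay under all the other libraries.

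By prefix, the share of IDs at 3 FPKM or more that were chosen ran from 0.170% of those starting with Cg6g (2 genes of 1176) to 1.02% of those starting with Cg7g (12 of 1181) and 1.39% of those starting with CgUng (4 of 288). The largest numbers were 17 genes starting with Cg2g (0.804% of 2115 IDs) and 14 starting with Cg5g (0.622% of 2249 IDs). These prefixes also had the most IDs at this level, and the share over all 12621 IDs was 0.713%. The IDs listed directly before or after a chosen gene, leaving out the chosen genes, numbered 177, and 97 of them passed the minimum of 3 FPKM. Their log2 difference of Jinsha had a median of -0.16 against Jinlan and -0.14 against diseased Taoxi, beside -0.12 and -0.04 over the 12621 IDs. For 33 of the 97 (34.0%) the Jinsha libraries lay below the 6 other diseased libraries, against 23.4% of the 12621 IDs. Whether IDs listed beside the chosen genes differ from other IDs was not tested.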

How the data were processed

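Fruit RNA was sequenced in 12 libraries, with a Qiagen RNeasy kit for extraction and a SMARTer kit for the libraries, per the labels' protocols. FPKM values, in a single table, are what the authors deposited. Which aligner, counter, build and annotation made them is not given in the sources used here. Columns were matched to samples by title, and 6 further columns that match no labelled sample were not used.

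The members and lists were chosen with earlier results of these data known. FPKM were used as deposited, with a pseudocount of 1 and no further scaling. The rule was applied in Python 3.11.15 with pandas 2.3.3, and was checked on simulated data with planted differences. Groups were compared by their values and by whether libraries overlapped. No p-value was computed, since the values of the groups had chosen the genes. Low Jinsha values, which chose the genes, also enter the comparison with Taoxi control 1. The numbering of the IDs was described by counts and medians only. Named genes are the 10 with the largest smaller difference, the next 5 by level in diseased Taoxi, the 5 nearest the median, those at the threshold, consecutive IDs, the extremes of Taoxi control 1 over Jinlan and the 3 widest spreads over Jinsha. Others are said to be named after their values were seen. No chosen gene repeated the row of another ID. Without sequences, reads shared between near-identical copies cannot be checked, and the strand setting is unknown. Alternatives were pseudocounts of 0.1 and 0.5, means of log values, Taoxi control 1 kept, 3 scalings, other minimums and thresholds, and leaving out each library of the rule. Figures were drawn with matplotlib 3.10.9.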

Additional observations from a re-analysis of the deposited data

How the results depend on the processing

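No paired analysis was possible, because the labels match no library of a group to a library of another. No result comes from a test: the values that chose the genes are given as descriptions. The choice gave 85 to 94 genes when any 1 of the 11 libraries was left out, of which 79 to 90 were among the 90, and 49 of the 90 were chosen in all 11 of these settings. CgUng020370 was chosen in 5 of them. Pseudocounts of 0.1 and 0.5, means of log values, Taoxi control 1 kept in the control mean, upper-quartile scaling, TPM, a minimum of 1 FPKM and no minimum gave 66 to 120 genes. All 23 alternatives chose 18 of the 90 genes.

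Median-ratio scaling gave 56 genes. Jinsha lay below the other 8 libraries for all 56 and below Taoxi control 1 for 55. A minimum of 10 FPKM, which by construction removes the low genes, gave 55 genes, with Jinsha below the 8 libraries for 54 and below Taoxi control 1 for 55. A threshold of 0.6 log2 units gave 234 genes, with 226 below the 8 libraries and 231 below Taoxi control 1, and medians of -0.81 against Jinlan and -0.94 against diseased Taoxi. A threshold of 1 gave 40 genes, with Jinsha below the 8 libraries and below Taoxi control 1 for all 40, and medians of -1.23 and -1.40. The genes whose next listed ID was also chosen numbered 1 as reported, 3 with pseudocounts of 0.1 and 0.5, 2 with median-ratio scaling, with a minimum of 1 FPKM and with none, 0 with a minimum of 10 FPKM, 8 with a threshold of 0.6, and 1 to 2 with a library left out. The cause of the lower count with median-ratio scaling was not tested. The depth of the libraries is unknown, so counting error at low FPKM cannot be given. Over the same 90 genes, and chosen after the data were seen, the 3 scalings put the diseased Taoxi mean below control for 54 to 60 genes, and leaving out a library of either state for 51 to 58. The genes with diseased Taoxi above the controls numbered 23 without diseased Taoxi 1 and 23 without Taoxi control 3, against 15 as reported. Those with diseased Taoxi below the controls numbered 37 to 45 with a library of either state left out, against 34 as reported. Over the same genes, leaving out a library cannot lower either count, so these rises are built in.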

Other observations

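The deposited table also lists IDs that start with NewGene, which the choice leaves out. Of these, 9 met every other part of the rule, and the pair described here was named after its values were seen. NewGene_3563 had 6.59, 6.87 and 6.49 FPKM in Jinsha, against 18.9, 18.8 and 19.5 FPKM in Jinlan fruit, 20.8, 22.3 and 14.7 FPKM in diseased Taoxi, and 11.9 and 15.4 FPKM in Taoxi controls 2 and 3. Its smaller log2 difference, -1.39, was the largest of the 9. The most abundant of them, NewGene_1261, had 87.7, 84.0 and 95.3 FPKM in Jinsha, against 162, 158 and 147 FPKM in Jinlan, and against 195, 165 and 142 FPKM in diseased Taoxi. For both IDs the Jinsha libraries lay below all the others.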
